A study of Mus musculus with 112 samples.

Results

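The metastases described here are those labelled squamous cell carcinoma (SCC) in mice that carry the knockout labelled HrasKO. They are 6 arrays from 3 mice, and they were set against 18 arrays from 8 wild-type (WT) mice that carry the same histology label. Together these are 24 of the 112 arrays of the series, which profiled dorsal skin and skin tumours of 15 male mice. Members were chosen by the labels for tumour type, histology and genotype alone. The HrasKO arrays are a lymph node and a lung metastasis of mouse 1616, a lung metastasis of mouse 1664 and 3 lymph node metastases of mouse 1706. The WT arrays are 9 lymph node, 5 lung, 2 thymus and 1 liver metastasis and 1 from a site labelled dorsal.

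Hybrids of Mus spretus with the FVB strain had been crossed back to FVB, so each mouse of either genotype carries its own mixture of both genomes. Both genotypes received DMBA, a carcinogen, when 8 weeks old, followed by many applications of the promoting agent TPA. Surgery removed primary tumours over 1 cm, and metastases were taken at sacrifice. The labels give HrasKO no further detail, such as the number of alleles lost or the cells in which Hras is absent. No array of an HrasKO mouse was labelled as an SCC carcinoma, so the primary tumours of the 3 mice are 2 mixed carcinomas (mice 1616 and 1706) and 2 spindle carcinomas (mouse 1664). The mouse was the replicate (n = 3 HrasKO and n = 8 WT), and the small number of mice and arrays limits the precision of every value. Hras itself was not analysed here, so the knockout was not checked on the targeted gene.

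Hras encodes a small GTPase that passes signals from growth factor receptors such as the EGF receptor to the RAF, MEK and ERK kinases. In this carcinogenesis protocol DMBA typically activates Hras by a point mutation, and TPA lets the mutant keratinocytes expand into papillomas. Squamous carcinomas keep keratins, desmosomes and hemidesmosomes, whereas spindle carcinomas have lost most of that epithelial programme.

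The squamous label was checked first, with 27 measured genes of epithelial identity and adhesion (keratins, desmosomal and junction proteins, and the regulators Trp63, Grhl2 and Esrp1). In the HrasKO arrays the mean log2 level of this list was 10.11 and 6.66 in the lymph node and lung of mouse 1616, 6.83 in the lung of mouse 1664, and 6.14, 8.31 and 6.80 in the nodes LWLT, LWRT and UPLT of mouse 1706. In the WT arrays it ran between 9.49 and 10.74 in 17 of 18, and was 6.17 in the lung metastasis of mouse 1949. Thus 1 of 6 HrasKO arrays lay in the range of the 17 WT arrays, and 5 lay below it. The 10 WT carcinomas labelled SCC had means between 9.60 and 11.06, and metastases labelled spindle had 6.16 to 8.30 in HrasKO mice and 5.33 to 6.97 in WT mice. In 4 HrasKO arrays and in WT mouse 1949 the mean of this list was thus in the range of metastases labelled spindle, against the label, although single markers varied. Carcinomas labelled spindle had 6.38 to 7.55 in HrasKO mice and 5.83 to 10.77 (median 6.93) in WT mice. The WT carcinoma range is wide enough to hold arrays labelled SCC too. The mean of 22 mesenchymal genes was 9.21 and 9.77 in the HrasKO 1616 and 1664 lungs. It was 9.30 and 9.28 in the HrasKO 1706 nodes LWLT and UPLT, and 10.62 in WT mouse 1949. In the HrasKO nodes 1616 LWLT and 1706 LWRT it was 9.97 and 10.49. Over the WT metastases labelled SCC the mesenchymal mean ran between 8.25 and 10.62, and every HrasKO array lay within that range. Carcinomas labelled spindle had 10.38 to 10.69 in HrasKO and 9.35 to 10.80 in WT mice. Metastases labelled spindle had 9.38 to 10.52 and 8.15 to 10.76. Krt5 and Krt14, the paired keratins of basal keratinocytes, were at 12.47 and 12.44 in the lymph node of HrasKO mouse 1616 but at 5.33 and 5.55 in the lung of HrasKO mouse 1664. They were at 9.25 and 8.21 in the HrasKO 1706 node UPLT, whose list mean was as low as that of the HrasKO 1664 lung. WT mouse 1949 had Krt5 at 4.89 and Krt14 at 5.15.

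Cell types of the host organs also differed between these arrays. The mean of 8 B cell genes was 5.36 and 10.84 in HrasKO mouse 1616 (node, lung), 8.07 in HrasKO mouse 1664, and 10.46, 6.48 and 9.97 in HrasKO mouse 1706 (LWLT, LWRT, UPLT), against 4.74 to 8.79 over the WT arrays. Pax5, which commits precursors to the B lineage, was at 10.15 in the HrasKO 1616 lung and at 10.13 and 9.81 in the HrasKO 1706 nodes LWLT and UPLT, against at most 8.50 in WT arrays. Those 3 HrasKO arrays were thus the highest of the 24 in B cell transcripts, and they were also low in epithelial transcripts. Metastases labelled spindle reached B cell means of 10.01 in HrasKO and 9.67 in WT mice. Both HrasKO lung arrays had high lung transcripts, with list means of 9.05 and 8.99, as did 4 of 5 WT lung arrays. The HrasKO arrays with the most epithelial transcripts, called epithelial-rich below, were the node LWLT of mouse 1616 and the node LWRT of mouse 1706. The name is relative to the other HrasKO arrays. The node LWRT of mouse 1706, at an epithelial mean of 8.31, lay below every WT array except that of mouse 1949. Only the node of mouse 1616 had an epithelial mean like that of the other WT arrays. In bulk samples such as these, fewer cells of a type and less RNA per cell cannot be told apart.

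**Figure D1:**
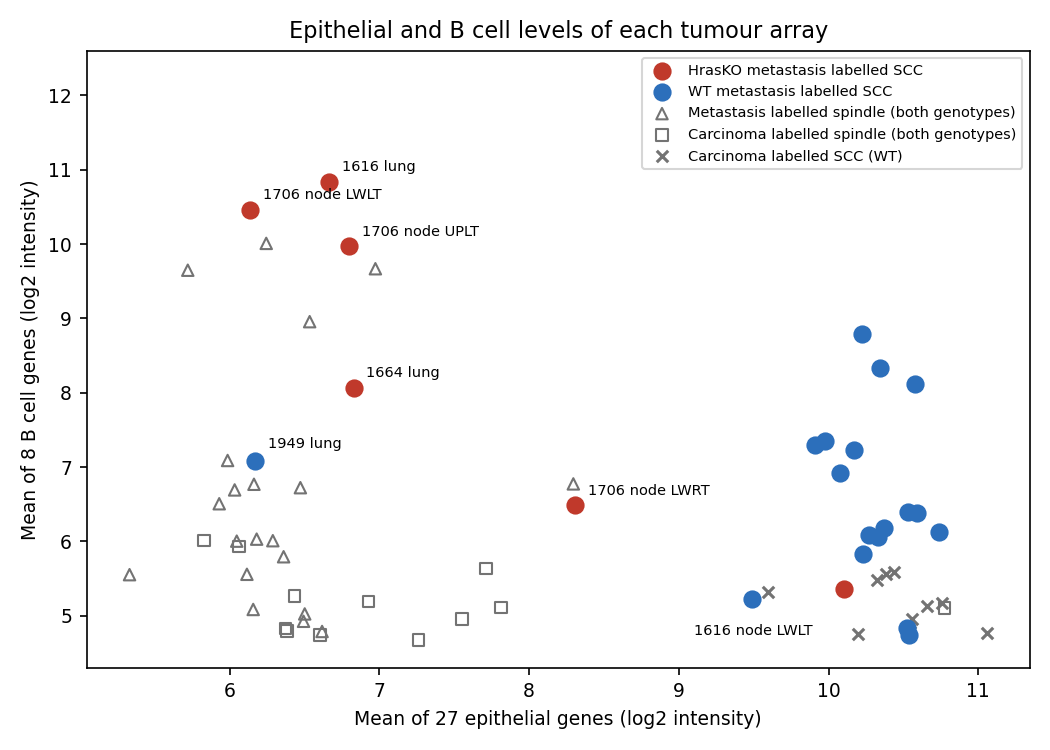
Mean log2 level of the 27 epithelial genes (horizontal) against that of the 8 B cell genes (vertical), 1 point an array: red points are HrasKO and blue points WT metastases labelled SCC, and grey symbols other tumours. The HrasKO lymph node array of mouse 1616 (10.11) lies among the WT arrays. On the horizontal axis 4 of 6 HrasKO arrays lie at 6.14 to 6.83, near WT mouse 1949 (6.17) and most spindle tumours. The B cell means of those 4 (8.07 to 10.84) lie above that of WT mouse 1949 (7.09).

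The comparison of HrasKO with WT metastases labelled SCC asks which transcripts differ between metastases of mice with and without the knockout. Levels, which are log2 intensities throughout, were averaged per mouse and fitted with limma, with the batch label as a covariate. Of 18772 genes, 20 fell (0.107%) and 9 rose (0.0479%) in HrasKO mice at an adjusted p under 0.05, and the adjusted p of these 29 lay between 0.0346 and 0.0478. At an unadjusted p under 0.05 there were 918 lower and 1451 higher genes. For all 29 the 3 HrasKO mice lay beyond all 8 WT mice. Over all genes, such separation was seen downward for 341 (1.82%) and upward for 510 (2.72%). Of the 18772 differences, 9017 were positive and 9755 negative. The 20 lower genes fell by 1.09 to 3.46 on the log2 scale, and the 9 higher ones rose by 0.64 to 1.93, beside a median of -0.01 over all genes.

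The number of calls moved with the samples and the model. With the epithelial mean of each mouse as a covariate, or without the 3 arrays rich in B cell transcripts, 0 genes passed (limma, with 1818 and 1199 genes at an unadjusted p under 0.05). By mouse that epithelial mean was 6.83 to 8.39 in HrasKO mice and 10.04 to 10.63 in WT mice other than 1949 (6.17). The covariate fit therefore cannot tell genotype and epithelial content apart. Leaving out 1 mouse at a time gave 2 genes without HrasKO mouse 1616, 1 without HrasKO mouse 1706 and 45 without HrasKO mouse 1664 or WT mouse 1456, which together make up batch 2. It gave 306 without WT mouse 1949, 133 without 1508, 16 without 1717, 9 without 2022, and 0 without 1383, 1984 or 2104 (limma, with 2194, 2289 and 2191 genes at an unadjusted p under 0.05). All 29 genes kept the sign of their difference each time. The balance of directions among the genes called turned, however, with 32 higher and 13 lower in batch 1 alone, and 100 higher and 33 lower without WT mouse 1508. In lung metastases alone 18 were higher and 4 lower.

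The transcription factors Pitx1 and Tfap2a, of epithelial and limb development, were among the largest falls. Pitx1, a homeobox factor of the hindlimb and oral ectoderm, was at 7.68, 8.28 and 6.09 in HrasKO mice 1616, 1664 and 1706, against a lowest of 9.70, a median of 10.44 and a highest of 11.02 in WT mice. All 3 HrasKO mice were thus below every WT mouse, and the difference was -3.19 (SE 0.435, limma adjusted p = 0.0346). By array, however, Pitx1 was at 10.82 in the node of HrasKO mouse 1616 and at 4.55 in its lung. Tfap2a, the AP-2 alpha factor of epidermis and neural crest, was at 7.49, 7.86 and 6.60 in HrasKO mice, against 9.42, 9.95 and 10.28 (lowest, median, highest) in WT mice. The groups did not overlap, and the difference was -2.63 (SE 0.273, limma adjusted p = 0.0346). A smaller fall was that of Hes1, the repressor induced by Notch receptors (difference -1.30, SE 0.201). Hes1 was at 8.45, 8.27 and 8.01 in HrasKO mice, against 8.96, 9.54 and 9.89 in WT mice, again without overlap.

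Moxd1, a relative of dopamine beta-hydroxylase, had the largest fall of the genes that passed. It was at 7.86, 6.36 and 6.46 in HrasKO mice 1616, 1664 and 1706, against 9.38, 10.53 and 11.51 (lowest, median, highest) in WT mice. The difference was -3.46 (SE 0.471, limma adjusted p = 0.0346). The 6 HrasKO arrays spread widely, at 10.85 and 4.87 in the node and lung of mouse 1616, 6.36 in mouse 1664, and 4.92, 9.75 and 4.72 in the nodes LWLT, LWRT and UPLT of mouse 1706. The 2 epithelial-rich nodes were thus inside the range of the WT arrays (9.15 to 11.51), and the other 4 arrays were below it.

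Several receptors and adhesion molecules fell. Epha2, a receptor tyrosine kinase for ephrin-A ligands whose gene is induced by Ras-MAPK signalling, was at 8.24, 8.70 and 7.65 in HrasKO mice, against 9.43, 10.37 and 11.07 (lowest, median, highest) in WT mice. Its ligand-family member Efna5 fell as well, by 1.22 on the log2 scale. Itgb4, the integrin subunit that anchors basal keratinocytes through hemidesmosomes, was at 9.61, 9.17 and 8.42 in HrasKO mice, against 10.20, 11.15 and 11.55 in WT mice. For both Epha2 and Itgb4 every HrasKO mouse was below every WT mouse. Stra6, which takes up retinol from its carrier protein, fell by 2.61 (SE 0.291), and Sdc1, a heparan sulphate proteoglycan of epithelia and plasma cells, by 1.45 (SE 0.176). Ptk7, a receptor-like pseudokinase of planar cell polarity, fell by 1.85, and Igsf3, an immunoglobulin superfamily protein, by 1.84.

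The other genes that fell by the most were Anxa8, an annexin that binds membranes in the presence of calcium (-2.63), Lratd1 (-2.44), Serinc2 (-2.33) and Fam110c (-2.03). Anxa8 was at 9.08, 8.66 and 7.96 in HrasKO mice, against 10.30, 11.07 and 12.11 (lowest, median, highest) in WT mice, with no overlap. The remaining falls were P2ry1, a receptor for ADP (-1.83), Irs1, the adaptor of insulin and IGF receptors (-1.64), Eva1c (-1.62), the actin-binding Cttn (-1.11) and the immune checkpoint ligand Cd276 (-1.09). These 5 and Efna5 lie beyond the rule for naming genes and complete the list.

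**Figure D2:**
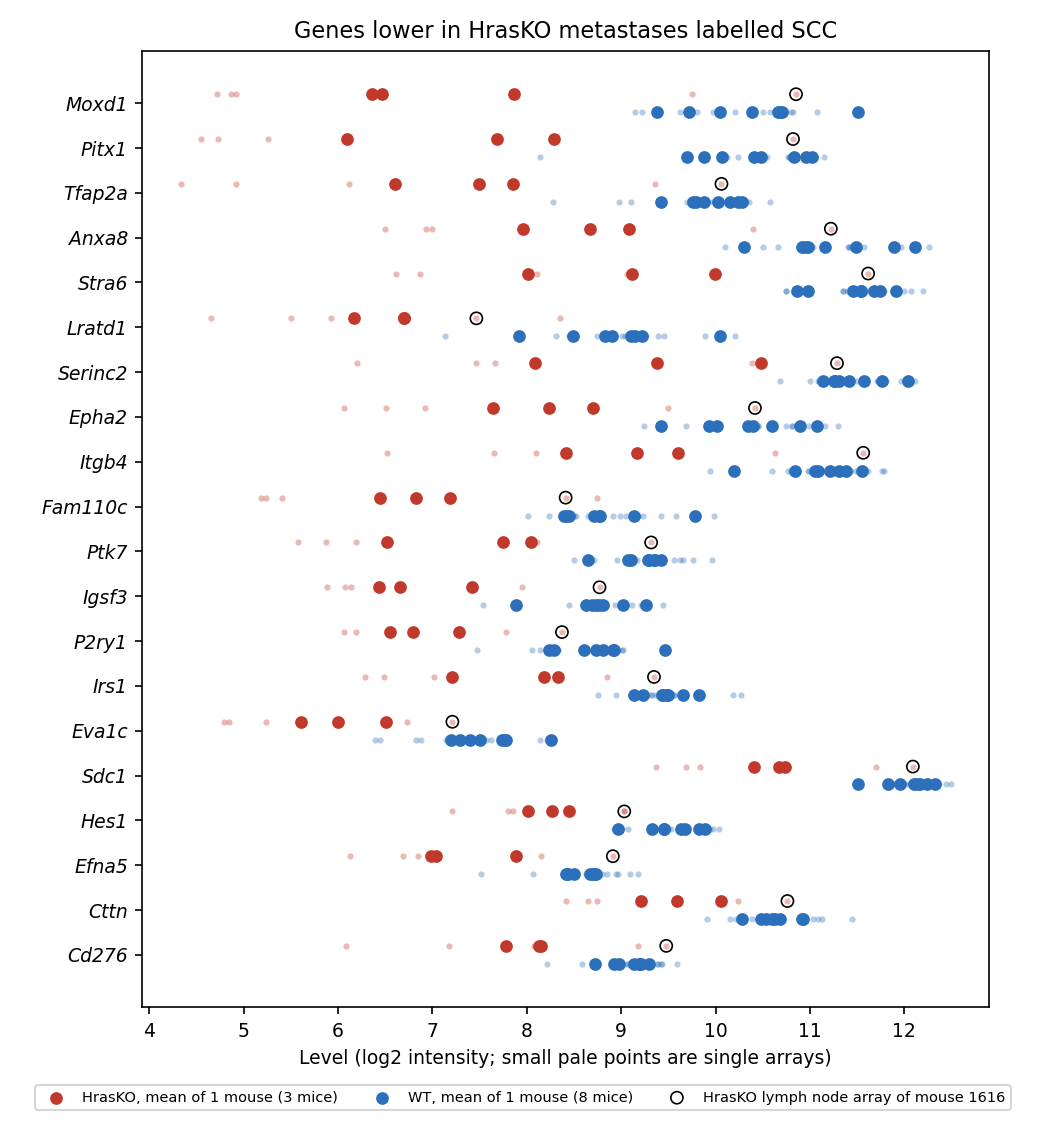
Log2 level of the 20 genes that fell, 1 row a gene: large points are mouse means (red HrasKO, 3 mice; blue WT, 8 mice), small pale points single arrays, and black rings the HrasKO lymph node array of mouse 1616. All 3 red means lie left of all 8 blue means in each row, while the ring lies within the WT mouse means for 19 of 20 genes or above them.

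The 20 falls were not shared evenly by the HrasKO arrays. All 20 genes lay below every WT mouse in the HrasKO 1616 lung, the HrasKO 1664 lung and the HrasKO 1706 nodes LWLT and UPLT. In the HrasKO 1706 node LWRT it was 10 of 20, and in the HrasKO 1616 node 1 of 20. The median of the 20 genes, as a difference from the WT mean, was 0.07 in the HrasKO 1616 node and -0.63 in the HrasKO 1706 node LWRT, against -1.58 to -3.51 in the other 4 HrasKO arrays. The epithelial mean moved with these genes, being highest in the same 2 nodes. Its part in the falls was not tested, and the covariate fit given above cannot separate it from genotype. Of the 20 genes, 1 (Itgb4) is in the epithelial list. WT mouse 1949 had the lowest WT level for 9 of the 20. Since the 20 genes were chosen by a fit that counts this mouse as WT, its place above the HrasKO mice was fixed by that choice.

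The Ras pathway was described next, with lists for Ras genes, regulators, targets and receptors. Among 8 measured Ras family genes 0 passed, and their median difference was -0.14. Nras, a close relative of Hras, was at 9.47, 9.17 and 9.04 in HrasKO mice, against 9.21, 9.40 and 9.51 (lowest, median, highest) in WT mice, so the groups overlapped (difference -0.15, SE 0.117). Mras differed by 0.45, Rras by -0.14 and Rheb by -0.46, and none of the 3 passed. Among 24 regulators and effectors 0 passed and the median was 0.07. The Ras guanine exchange factor Rasgrf2 is not a member of that list. It was at 6.40, 7.24 and 5.82 in HrasKO mice, against 4.55, 4.81 and 5.48 in WT mice. All 3 HrasKO mice were above every WT mouse, but Rasgrf2 fell short of the threshold (1.39, limma adjusted p = 0.0562). Rasgrp1, an exchange factor best known in lymphocytes, differed by 1.36, and it was at 10.47, 10.83 and 9.98 in the 3 HrasKO arrays rich in B cell transcripts and at 9.88 in the HrasKO 1706 node LWRT, whose B cell mean was 6.48, against at most 9.08 in WT arrays.

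Among 22 targets and feedback inhibitors of Ras-MAPK signalling, 20 had a negative difference, the median was -0.61, and 1 (Epha2) passed. In 4 of 22 all HrasKO mice were below all WT mice, against 1.82% of all genes. Dusp6, the phosphatase that turns off ERK, was at 10.85, 10.94 and 10.44 in HrasKO mice, against 11.22, 11.44 and 11.63 (lowest, median, highest) in WT mice (-0.75, limma adjusted p = 0.0562). Hbegf, a ligand of the EGF receptor, had a difference of -1.38 and Phlda1 one of -1.35, also without overlap of the mice. By array the list's median difference from the WT mean was 0.05 in the HrasKO 1616 node, -0.15 in the HrasKO 1664 lung and 0.08 in the HrasKO 1706 node LWRT, against -1.43 to -1.74 in the 3 HrasKO arrays rich in B cell transcripts. Without those 3 arrays the list's median was 0.02, and with the epithelial mean as a covariate it was -0.78. Dusp6 itself was at 11.72 and 11.53 in the HrasKO nodes 1616 LWLT and 1706 LWRT, inside the WT arrays' range of 10.72 to 12.03.

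Receptors of the EGF family and their ligands had a median difference of -1.01 over 14 genes, 12 of them negative, and 0 passed. Egfr was at 9.00, 8.89 and 9.32 in HrasKO mice, against 9.39, 9.81 and 10.07 in WT mice, without overlap (-0.63, limma adjusted p = 0.157). Erbb3 differed by -1.70. The median over the list was -0.23 without the 3 HrasKO arrays rich in B cell transcripts. Among 14 AP-1 and immediate early genes, transcription factors that respond within minutes to growth signals, 0 passed and the median was -0.26.

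Of 42 genes near Hras on chromosome 7, 0 passed and 30 had a negative difference (median -0.24). The highest was Lrrc56, a gene next to Hras, at 7.44, 7.20 and 7.47 in HrasKO mice, against 5.75, 6.39 and 7.04 (lowest, median, highest) in WT mice. Each HrasKO mouse was above every WT mouse, with a difference of 1.05 (SE 0.252, limma adjusted p = 0.153). Lrrc56 was above every WT array (at most 7.06) in both epithelial-rich HrasKO nodes, at 7.47 in 1616 LWLT and 7.63 in 1706 LWRT. The HrasKO 1706 node UPLT, at 6.96, lay inside the range of the WT arrays. In the other tissues of the series the Lrrc56 difference passed: 1.30 in spindle metastases, 0.98 in papillomas and 0.79 in skin (limma adjusted p = 0.00141, 0.00381 and 0.00486). The Lrrc56 difference in SCC metastases minus that in each of these tissues was -0.27, 0.05 and 0.24, and none passed. The lowest of the 42 was Pkp3, a desmosomal plakophilin that also belongs to the epithelial list (-1.85, not passing).

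**Figure D3:**
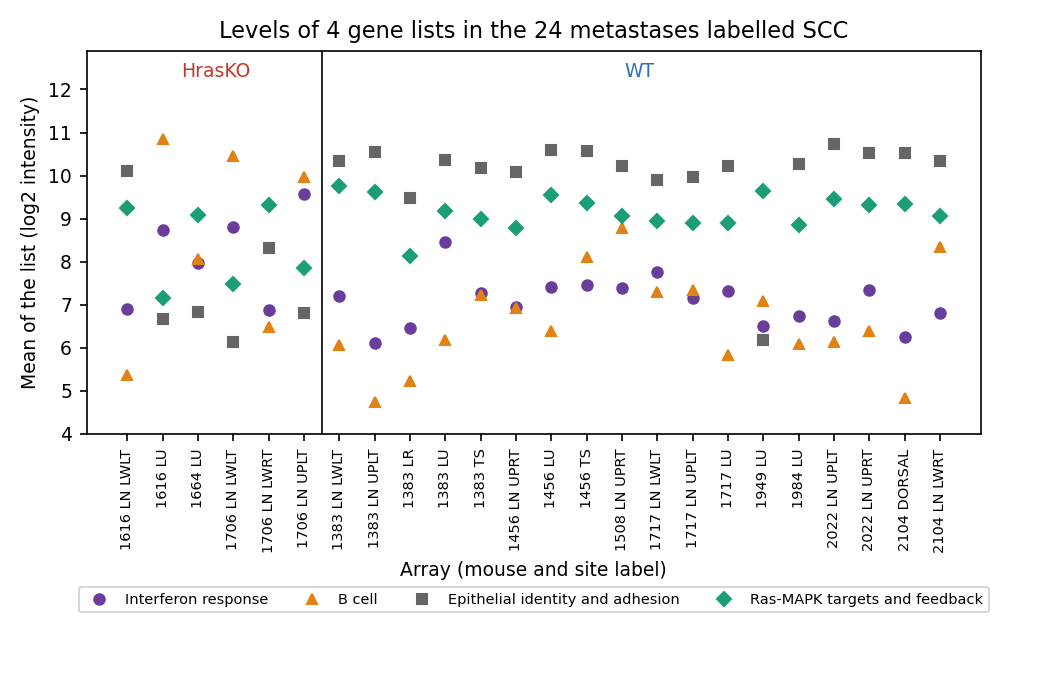
Mean log2 level of 4 gene lists in each of the 24 metastases labelled SCC, 6 HrasKO arrays left of the line and 18 WT arrays right of it. In the HrasKO 1616 lung and the HrasKO 1706 nodes LWLT and UPLT the B cell mean (9.97 to 10.84) lies above the epithelial mean (6.14 to 6.80), and the Ras-MAPK mean is lowest in these arrays (7.16 to 7.85).

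All 27 genes of epithelial identity and adhesion had a negative difference (median -2.36), yet only Itgb4 passed. The desmosomal cadherin Dsg3 differed by -4.55, with 7.34, 3.68 and 5.70 in HrasKO mice, against 4.01, 11.03 and 11.61 (lowest, median, highest) in WT mice. Here WT mouse 1949 lay among the HrasKO mice, so the groups overlapped. For Krt14 (-3.74) and for Trp63, the master regulator of stratified epithelia (-2.86), WT mouse 1949 lay below all 3 HrasKO mice. Dsp, the desmoplakin that ties desmosomes to keratin, differed by -3.25 (limma adjusted p = 0.104). The difference in the list's mean was -2.36 with all mice and -2.88 without WT mouse 1949. Without the 3 arrays rich in B cell transcripts the median over the genes was -1.27.

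All 18 genes of the cornified envelope and granular layer had a negative difference (median -1.41) and 0 passed. Sprr1a, a cornified envelope precursor, differed by -3.93, and in the node of HrasKO mouse 1616 it was at 11.33, against 4.64 in that mouse's lung. All 20 genes of hyperplastic and internal epithelium had a negative difference (median -1.53), and 1 (Pitx1) passed. Krt13, a keratin of internal stratified epithelia, was at 5.45, 4.63 and 4.91 in HrasKO mice, against 6.07, 8.41 and 11.58 (lowest, median, highest) in WT mice, without overlap (-3.76, limma adjusted p = 0.265). Krt13 was at 6.44 and 6.12 in the 2 epithelial-rich HrasKO nodes, within the lower part of the WT arrays (4.79 to 11.64). In both nodes the list's median difference from the WT mean was negative as well, -0.81 in 1616 LWLT and -2.09 in 1706 LWRT.

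Among Notch, Wnt and TGF-beta lists 1 gene passed. It was Hes1, 1 of 13 genes of the Notch list, whose median was 0.08. The Notch ligand Jag1 differed by -1.50 without passing. In the Wnt list 0 of 19 passed (median -0.31), and Wnt4 was at 6.19, 5.25 and 4.94 in HrasKO mice, against 6.49 to 8.99 in WT mice (-2.46, limma adjusted p = 0.106). In the TGF-beta and activin list 0 of 17 passed (median -0.35). Mesenchymal genes, which mark spindle tumours, had a median of 0.03 over 22 genes with 0 passing. Among them Snai2, a repressor of epithelial cadherin, differed by -1.35 and Zeb1, another such repressor, by 1.25. Cell cycle genes had a median of -0.04 over 20 genes with 0 passing, and Ccnd1, the cyclin of G1, differed by -1.12.

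Interferon response genes mostly had positive differences. Of 16 measured genes 15 had a positive difference, the median was 0.98, 7 had all HrasKO mice above all WT mice, and 1 (Ifit1) passed. Over all genes 9017 of 18772 differences were positive, 2.72% had all HrasKO mice above all WT mice and 0.0479% passed as higher. Ifit1, which binds foreign RNA ends, was at 7.84, 8.03 and 8.19 in HrasKO mice, against 5.41, 5.94 and 6.66 (lowest, median, highest) in WT mice. The difference was 1.93 (SE 0.254, limma adjusted p = 0.0346), which is 3.82-fold. Ifit3 of the same family was at 8.23, 9.07 and 8.53 in HrasKO mice, against 5.84, 6.56 and 7.68 in WT mice, and did not pass (1.93, limma adjusted p = 0.0635). Rsad2, the antiviral enzyme viperin, was at 8.48, 8.99 and 8.79 in HrasKO mice, against 5.99, 6.86 and 8.08 in WT mice (1.73, limma adjusted p = 0.155). Mx2, an antiviral GTPase, differed by 1.43 and Ifit2 by 1.56, neither passing.

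The promoters of interferon genes carry the interferon-stimulated response element (ISRE), the site of the STAT and IRF9 complex. The letters TTTCNNTTTC, or GAAANNGAAA for the other strand, were searched in RefSeq promoter windows of 300 bases (build GRCm38.p6). They were present in 9 of the 16 windows (56.2%) of 13 interferon list genes, and in 3.44% of all 32851 windows. A match is a description of the letters and says nothing of binding in these tumours. The windows of 3 genes with large differences are shown, 5′ to 3′ along the gene, with the matched letters in capitals. They lie at chr19:34640639-34640938 (plus strand) for Ifit1, chr19:34583279-34583578 (plus strand) for Ifit3 and chr12:26456403-26456702 (minus strand) for Rsad2.
Ifit1: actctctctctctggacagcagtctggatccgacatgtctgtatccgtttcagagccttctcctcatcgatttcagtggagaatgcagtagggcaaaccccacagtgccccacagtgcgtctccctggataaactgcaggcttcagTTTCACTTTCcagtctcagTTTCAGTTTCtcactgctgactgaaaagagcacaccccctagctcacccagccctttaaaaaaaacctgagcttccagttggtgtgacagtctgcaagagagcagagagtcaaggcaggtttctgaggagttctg
Ifit3: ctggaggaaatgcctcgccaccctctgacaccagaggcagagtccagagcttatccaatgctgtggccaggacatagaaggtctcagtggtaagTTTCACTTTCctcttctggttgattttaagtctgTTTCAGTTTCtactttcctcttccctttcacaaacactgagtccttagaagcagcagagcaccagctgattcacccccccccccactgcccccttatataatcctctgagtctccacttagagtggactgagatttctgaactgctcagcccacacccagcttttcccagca
Rsad2: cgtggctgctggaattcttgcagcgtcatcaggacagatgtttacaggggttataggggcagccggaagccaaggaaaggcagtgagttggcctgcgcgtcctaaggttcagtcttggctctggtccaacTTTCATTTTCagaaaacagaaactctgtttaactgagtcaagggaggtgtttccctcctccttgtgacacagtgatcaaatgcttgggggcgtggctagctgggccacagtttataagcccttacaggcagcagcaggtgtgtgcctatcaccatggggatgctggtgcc
Ifit1 and Ifit3 each hold 2 matches and Rsad2 holds 1. The windows of Ifit2, Irf9, Irf7 and Oasl2 hold no such letters, although Ifit2 and Irf9 had all HrasKO mice above all WT mice.

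The interferon pattern also differed between HrasKO arrays. Ifit1 was at 8.92 in the HrasKO 1616 lung, 8.03 in the HrasKO 1664 lung, and 8.46 and 9.96 in the HrasKO 1706 nodes LWLT and UPLT, above every WT array (4.65 to 7.82). It was at 6.76 and 6.14 in the HrasKO nodes 1616 LWLT and 1706 LWRT, inside the WT range. The list's median difference from the WT mean was -0.19 and -0.13 in those 2 nodes and 0.94 to 2.29 in the other 4 HrasKO arrays. Without the 3 arrays rich in B cell transcripts the list's median was 0.19, and with the epithelial mean as a covariate it was 1.17.

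Antigen presentation genes had positive differences in 12 of 12 (median 0.55) with 0 passing. H2-Eb1, the beta chain of an MHC class II molecule, was at 9.79, 9.93 and 8.83 in HrasKO mice, against 6.67, 7.20 and 8.14 (lowest, median, highest) in WT mice, without overlap (2.14, limma adjusted p = 0.0584). H2-Eb1 was at 8.28 and 8.24 in the 2 epithelial-rich HrasKO nodes, above the highest WT array at 8.14. The list's median without the 3 arrays rich in B cell transcripts was 0.03.

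The other genes that rose were mostly weakly detected. Cadm3, an adhesion molecule of the nectin-like family, was at 7.53, 7.35 and 7.70 in HrasKO mice, against 5.78, 6.08 and 6.60 (lowest, median, highest) in WT mice (1.43, limma adjusted p = 0.0352). Its 6 HrasKO arrays were at 6.85 to 8.41, and 4 of them lay above the highest WT array (7.25), the epithelial-rich node of HrasKO mouse 1616 among them (8.17). Strip2, a subunit of the striatin-interacting phosphatase and kinase complex, rose by 1.12, and was at 4.99 in the HrasKO 1616 node and 7.45 in its lung. The other 6 that passed, 4930578G10Rik, Coch, Pde11a, Cyp2r1, Cd163l1 and Akap17b, rose by 0.64 to 1.29 and had mean levels under 6 in both genotypes. They lie beyond the rule for naming genes too. Fasn, the fatty acid synthase, was at 11.39, 11.68 and 11.34 in HrasKO mice, against 9.52, 10.31 and 10.66 in WT mice, above every WT mouse but not past the threshold (1.15, limma adjusted p = 0.0641). The potassium channel Kcnk3 differed by 1.13 with the same adjusted p.

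Markers of immune, vascular and host organ cells mostly had positive differences, with 0 members passing (limma) among B cell, T and NK cell, dendritic cell, endothelial, adipocyte, fibroblast, macrophage and lung markers. The 8 B cell genes were all positive (median 1.63), and Pax5 was at 7.39, 8.10 and 8.22 in HrasKO mice, against 4.71, 5.59 and 8.50 (lowest, median, highest) in WT mice. The 12 T and NK cell genes were also all positive (median 1.09). Without the 3 HrasKO arrays that are rich in B cell transcripts the medians were -0.38 and -0.02, which for the B cell list follows from how those arrays were chosen. Dendritic cell markers had a median of 1.14. Against 2.72% over all genes, all HrasKO mice were above all WT mice in 5 of these 9 markers. Among these Cd209a, a lectin of monocyte-derived dendritic cells, was at 8.82, 9.29 and 9.52 in HrasKO mice, against 5.10, 6.38 and 8.27 in WT mice (2.40, limma adjusted p = 0.154). It was at 9.55 and 9.95 in both epithelial-rich HrasKO nodes, although single WT arrays reached 10.61. Plasma cell markers had a median of 0.23, and the 1 of 7 that passed, Sdc1, was lower.

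Endothelial markers were positive in 10 of 10 (median 0.81), adipocyte markers in 9 of 9 (median 1.41) and lung markers in 11 of 13 (median 1.04). Adipocyte levels were split, at 9.17 to 9.94 in 4 HrasKO arrays and at 4.86 and 5.36 in the HrasKO 1664 lung and 1706 node LWRT, against 4.82 to 10.16 over the WT arrays. Fibroblast markers had a median of 0.50, with 8 positive and 2 negative. Macrophage markers were evenly split, with 6 positive and 6 negative (median 0.10). Dpt, a fibroblast matrix protein, differed by 2.26 and Lyz1, a lysozyme of the macrophage list, by 1.95, neither passing. The lowest members of these lists differed by -0.512 (fibroblast) and -0.745 (macrophage). Lyz1 was at 11.33 and 11.99 in the HrasKO 1616 and 1664 lungs, against 7.95 to 9.04 in the HrasKO nodes. The part of these cell types in the differences of single genes was not tested.

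**Figure D4:**
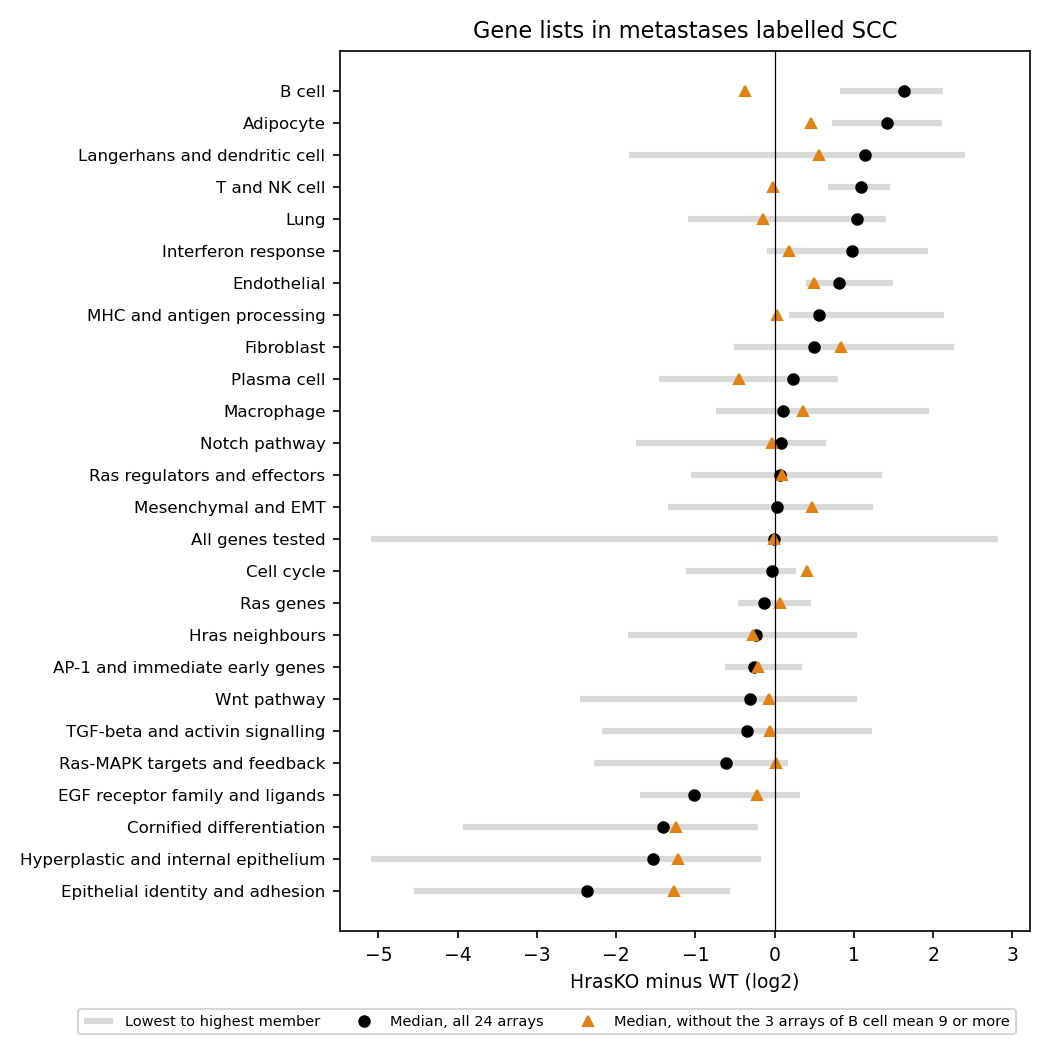
HrasKO minus WT log2 difference of 25 gene lists and of all genes tested: grey bars run between the lowest and highest member with all arrays, black points are medians with all 24 arrays, and orange triangles medians without the 3 HrasKO arrays of B cell mean 9 or more. Epithelial lists keep medians of -1.22 to -1.27 without those arrays, while the interferon median is 0.19 and the Ras-MAPK median 0.02.

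Whether the same genes differ by genotype elsewhere was asked in a fit of 8 groups, the 2 genotypes in SCC metastases, spindle metastases, papillomas and skin, with the mouse as a random block. The HrasKO groups held 4 mice with spindle metastases, 4 with papillomas and 6 with skin, and the WT groups 3, 9 and 9. By genotype 2 genes passed in spindle metastases (0.0107%), 3 in papillomas (0.0160%) and 119 in skin (0.634%). None of these was among the 29 (0 shared in each tissue). The 20 genes that fell in SCC metastases had median differences of 0.41 in spindle metastases, 0.01 in papillomas and -0.21 in skin, and 0 passed in any of the 3.

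The difference between tissues was tested in the same fit, so the 3 contrasts share the SCC metastases. The genotype difference in SCC metastases minus that in spindle metastases passed for 7 genes (0.0373%), minus that in papillomas for 8 (0.0426%) and minus that in skin for 125 (0.666%). Skin and metastases come from the same mice, and with within-mouse differences of the 11 mice 0 genes passed in the skin contrast (limma, with 1987 at an unadjusted p under 0.05), which ends every skin call given here. For the 20 lower genes the sign is built in, since their low value in HrasKO SCC metastases, which chose them, is the first term of each contrast. Their medians were -2.43, -1.89 and -1.70, given as a description, and 1 of them passed in each contrast. Anxa8 passed against spindle metastases (-4.63, SE 0.944, limma adjusted p = 0.0451), where its HrasKO mean was 8.82 and its WT mean 6.80. Moxd1 passed against papillomas (-4.27, SE 0.769, limma adjusted p = 0.0199) and against skin (-3.59, SE 0.728, limma adjusted p = 0.0192). The papilloma means of Moxd1 were 10.09 in HrasKO and 9.36 in WT mice, close to the 10.39 of WT metastases labelled SCC and far from the 6.89 of HrasKO ones.

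Dsp, Klf5 and Anxa1 passed in all 3 contrasts, always with a negative value. In SCC metastases themselves none of them passed (limma adjusted p = 0.104, 0.0979 and 0.0562). In spindle metastases their HrasKO means were the higher ones. They were 7.29 against 5.73 in WT mice for Dsp, 9.42 against 7.89 for Klf5 and 11.34 against 11.25 for Anxa1. Klf5, a Krüppel-like factor of proliferating epithelia, had the smallest p, with -3.27 against spindle metastases (SE 0.483, limma adjusted p = 0.000829). It was at 9.31, 8.87 and 8.08 in HrasKO metastases labelled SCC, against at least 9.57 in WT mice. Anxa1, an anti-inflammatory annexin abundant in squamous epithelium, differed by -1.01 to -1.25 between tissues. Ano1, a calcium-activated chloride channel, passed against spindle metastases (-2.59), where its HrasKO mean was 9.29 and its WT mean 8.33. Lgr4, an R-spondin receptor, passed against papillomas (-2.44). In the skin contrast 100 of 125 genes were positive, with Dph5, a diphthamide enzyme, at 1.00 and Ikbkb, the kinase of the NF-kB inhibitor, at 0.80. Leaving out 1 mouse at a time gave 1 to 103 genes against spindle metastases, 0 to 199 against papillomas and 5 to 274 against skin. The counts of 103 and 199 came without WT mouse 1949, and 274 without WT mouse 1508, while 1 came without WT mouse 1984 and 5 without HrasKO mouse 1616.

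**Figure D5:**
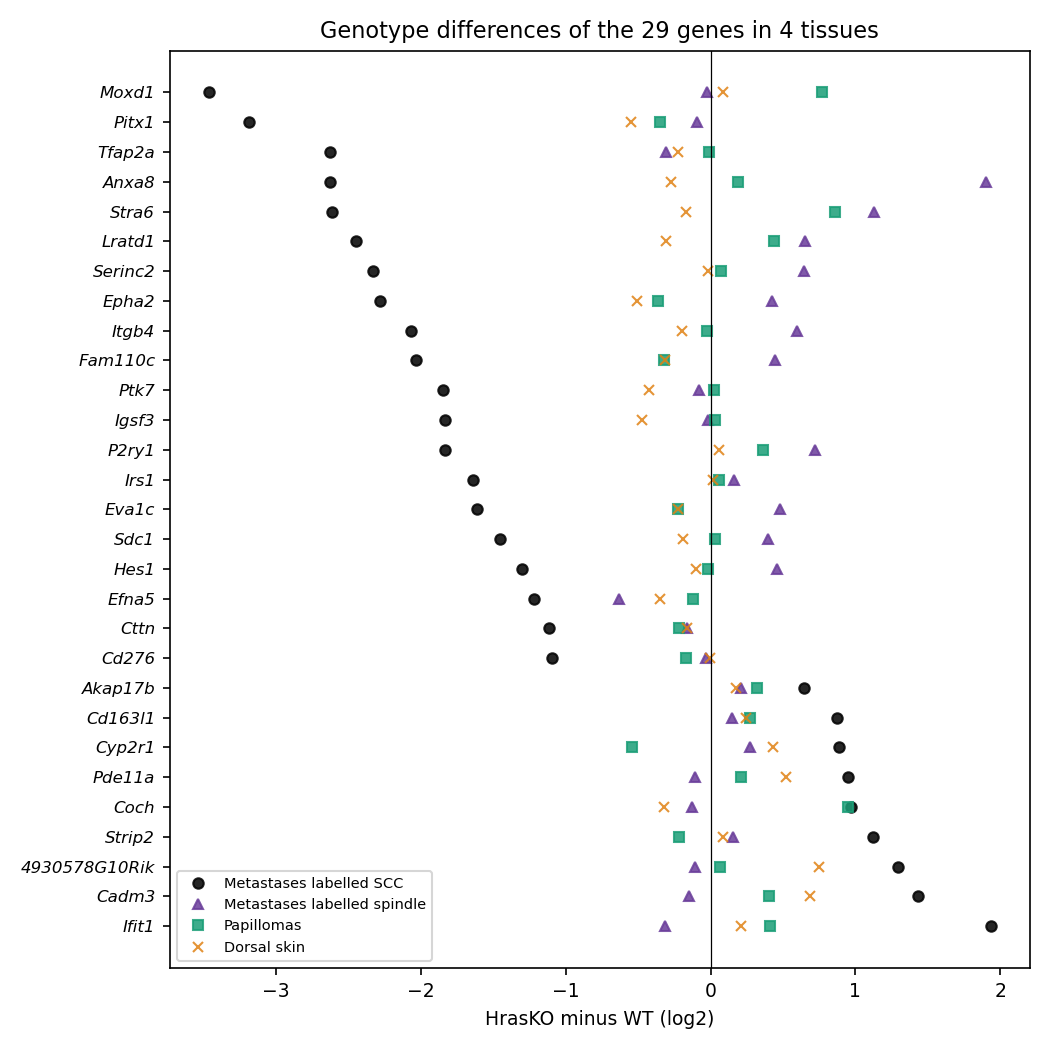
HrasKO minus WT log2 difference of the 29 genes that passed in SCC metastases (black circles, fit of 11 mice) and of the same genes in spindle metastases, papillomas and skin (8-group fit). The 20 upper genes lie between -1.09 and -3.46 in SCC metastases and between -0.64 and 1.90 in the other 3 tissues, which did not choose them.

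The 20 lower genes were last set beside the other tumours, as levels. Averaged over the 20 genes, the mean level was 7.90 in HrasKO and 9.88 in WT metastases labelled SCC. Metastases labelled spindle had 8.32 in HrasKO and 7.91 in WT mice, and carcinomas labelled spindle had 8.94 and 8.81. Papillomas had 9.45 and 9.41, and skin had 8.60 and 8.81. The 2 mixed HrasKO carcinomas, which are primary tumours of mice 1616 and 1706, had 9.59, close to the 9.72 of WT carcinomas labelled SCC. The WT mixed carcinoma, 1 array, had 8.86, and the WT mixed metastasis, also 1 array, had 7.82. In the mixed carcinoma of HrasKO mouse 1706, Moxd1 was at 10.64, Pitx1 at 10.34 and Tfap2a at 10.17, whereas the nodes LWLT and UPLT of this mouse had Moxd1 at 4.92 and 4.72. The epithelial mean of that carcinoma was 10.22, and its B cell mean was 5.50. The mixed carcinoma of HrasKO mouse 1616 had an epithelial mean of 6.14, although its Tfap2a was at 10.07 and its Pitx1 at 9.76. The HrasKO 1616 lung metastasis had Tfap2a at 4.92 and Pitx1 at 4.55, at an epithelial mean of 6.66 and a B cell mean of 10.84. The 2 spindle carcinomas of HrasKO mouse 1664 had Tfap2a at 10.58 and 9.01, against 7.86 in its lung metastasis, and epithelial means of 6.38 and 6.43. In HrasKO metastases labelled spindle the mouse means of Tfap2a ran between 4.48 and 9.91 (mean 8.38 ± 2.62, SD, n = 4).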

How the data were processed

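Total RNA (1 ug) was labelled for Affymetrix arrays, per the labels' protocols. Per the submitters' processing notes, the deposited log2 intensity of each probe set came from RMA. Its version and any batch correction are not stated. Of 28204 probe sets, 21141 had 1 gene symbol in the annotation given, 1881 had several and 5182 had none. The first kind gave 18772 genes, and the probe set of highest mean stood for each of 1367 genes with more than 1. Medians of the 24 arrays lay between 5.94 and 6.29.

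Mouse means were tested with limma (3.58.1, on R 4.3.3) with the batch label as covariate, two-sided, and p-values were adjusted by Benjamini-Hochberg over all genes at a threshold of 0.05. Batch 2 held 1 HrasKO and 1 WT mouse. The fit of 8 groups had the mouse as random block (consensus correlation 0.09). The labels number no replicates, and same-numbered mice do not exist across genotypes.

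Named were up to 12 genes a direction that passed with a mean of at least 6 in the higher group, filled up to 8 by the smallest p among differences of at least 1. Added were the 2 leading or the 2 extreme members of each list, 4 genes per tissue contrast, and Ras genes with Lrrc56. Further members, such as Dusp6, Egfr, Hbegf, Krt5, Krt13, Krt14, Dsg3, Trp63, Jag1, Rsad2, Mx2 and Irf9, were named after their values were seen. Members and lists were chosen with earlier results of these data known. The fits were tested on simulated data.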

Additional observations from a re-analysis of the deposited data

Results flagged for a closer look

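Among 100 genes and 25 list means, 24 values of single WT mice stood far from the other 7 WT mice. Chance flags about 1 in 20 groups. Of these values 15 belong to WT mouse 1949, whose single array is a lung metastasis. It was low in the epithelial list (6.17), with Cdh1 at 7.74, Epcam at 6.28, Dsg3 at 4.01, Dsp at 9.33, Pkp3 at 6.36, Trp63 at 5.14, Krt5 at 4.89, Krt14 at 5.15 and Krt6b at 3.81. It was also low in Sprr1a (6.31), Erbb3 (5.18), Ptk7 (8.64), Igsf3 (7.88) and the Notch list mean (7.36). WT mouse 1508 was high in the B cell list (8.79), Pax5 (8.5) and Cd4 (9.01), and low in Erbb4 (3.94). WT mouse 1456 was high in the adipocyte list (8.13) and Cidec (9.31), and WT mouse 1984 in the lung list (8.55) and Scgb1a1 (10.64). Col1a1 was at 9.34 in WT mouse 2022.

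Among the same 100 genes, not all genes tested, there were 19 pairs of gene and tissue for which the genotype difference in SCC metastases differed, by limma's test of the difference, from that elsewhere. Up to 4 genes per contrast had been named because they passed it, so the pairs repeat that choice and add no support. The skin calls are lost with within-mouse differences. Against spindle metastases these were Anxa8 (-4.63), Dsp (-4.56), Klf5 (-3.27), Ano1 (-2.59) and Anxa1 (-1.25). Against papillomas they were Moxd1 (-4.27), Dsp (-4.05), Lgr4 (-2.44), Klf5 (-2.1) and Anxa1 (-1.14). Against skin they were Moxd1 (-3.59), Dsp (-3.0), Klf5 (-1.68) and Anxa1 (-1.01) on the lower side, and Mx2 (1.59), Dph5 (1.0), Zfyve26 (0.88), Ikbkb (0.8) and Birc6 (0.45) on the higher side.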

How the results depend on the processing

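The 29 genes between HrasKO and WT SCC metastases became 193 with single arrays and the mouse as a random replicate block (19 shared with the 29), 53 without the batch covariate, 45 in batch 1 alone, 1 in lymph node metastases alone (0 shared) and 22 in lung metastases alone (18 higher, 4 lower, 1 shared). No gene passed (count 0, limma) with the epithelial covariate, with differences from own skin, or with the mixed metastasis added (1818, 1987 and 2168 genes at an unadjusted p under 0.05). The count was also 0 in settings chosen after seeing the data: without arrays of B cell mean of 9 or more (1199), also without WT mouse 1949 (2016) or with the epithelial covariate (993), and with that covariate on single arrays (472), with B cell and lung levels added (614), or without WT mouse 1949 (477). Leaving out 1 mouse gave 0 to 306 genes. Of the 29 genes, Cd276 (0.015, epithelial covariate without the arrays rich in B cell transcripts) and Efna5 (0.101, epithelial covariate without WT mouse 1949) changed sign. The cause was not tested.

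The contrast with skin gave 48 genes by eBayes with trend and robust settings, 0 by within-mouse differences (limma, 1987 at an unadjusted p under 0.05), and 5 to 274 with 1 mouse left out. Leaving out 1 mouse gave 0 to 199 genes against papillomas, 1 to 103 against spindle metastases, and -2.88 to -2.06 for the epithelial difference. In skin 201 genes passed without the batch covariate. No pairing of HrasKO with WT mice exists, and the replicate block here is the mouse. Leaving out arrays whose correlation with spindle carcinomas was at least that with SCC carcinomas gave no value, since no HrasKO array was left. The margin could be small: both correlations were 0.964 in the HrasKO 1616 node, and 4 WT arrays were in this class too.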
